A study of Mus musculus with 12 samples.

Results

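Genes that sense nucleic acids or relay interferon signals were followed in CT26 cells, an established mouse colon carcinoma line, under starvation and chemotherapy. The 9 genes were Tlr3, Ddx58, Ifih1, Dhx58, Irf1, Irf3, Irf7, Irf9 and Stat2, taken as a list of symbols. Each was read from the probe set that carries its symbol alone and has the highest mean over the arrays, and they make up 9 of the 17097 genes measured. The 12 Affymetrix arrays of mouse transcripts fall into 4 groups of 3. STS+OXP cells were kept under short-term starvation (STS), which meant glucose at 0.5 g/L and serum at 1% for 48 hours, and received the DNA-damaging platinum compound oxaliplatin (OXP). OXP cells received the drug with glucose at 1.0 g/L and serum at 10%, STS cells had the starvation medium without the drug, and control (CTR) cells had glucose at 1.0 g/L and serum at 10% and no drug. The labels give 10 µM oxaliplatin, begun 24 hours after STS. The text of the study states the dose and the timing in other ways as well, and the values below are reported without choosing between them. All groups are the same line, so no other genetic background was examined, and starvation joins low glucose to low serum, so the effects of these cannot be told apart.

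Cells detect foreign or misplaced nucleic acids with dedicated sensors. Double-stranded RNA is bound in endosomes by the receptor encoded by Tlr3. In the cytosol it is bound by the helicases RIG-I, encoded by Ddx58, and MDA5, encoded by Ifih1, while LGP2, encoded by Dhx58, modulates both. The sensors signal through adaptors and kinases to the interferon regulatory factors IRF3 and IRF7, which switch on interferon genes. Secreted interferon then acts through Janus kinases on STAT2 and its partners, and the complex of STAT2 with IRF9 binds the interferon-stimulated response element of its target genes. Several sensors and factors are themselves targets of interferon, which forms a positive feedback loop, whereas IRF3 is known as a constitutively expressed factor that is activated by phosphorylation. IRF1 is a further activator, known as a target of interferon gamma through the gamma-activated site.

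Promoter windows of RefSeq (GRCm38.p6), which run from 250 bases before to 50 bases after the start of a gene, were found for 8 of the 9 genes and not for Dhx58. They were searched on both strands for the core of the response element, GAAANNGAAA, and for the gamma-activated site, TTCNNNGAA. The first stood in the windows of Ddx58, Ifih1 and Stat2, and the second in that of Irf1. Of all 32851 windows in the table, 3.44% held the first motif and 8.3% the second. The matches are shown because these elements define the pathway, and a match is a description of letters, not of binding. Capitals mark the motif, each sequence reads 5′ to 3′ along the strand of its gene, and positions count from the gene's start. In Ddx58 (chr4:40239776-40239868, minus strand) the match ran from base 3 to base 12, in the reverse orientation.
Ddx58: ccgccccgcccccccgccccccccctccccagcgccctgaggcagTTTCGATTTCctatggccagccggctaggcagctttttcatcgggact
In Ifih1 (chr2:62646206-62646268, minus strand) it ran from base 33 to base 42, in the forward orientation.
Ifih1: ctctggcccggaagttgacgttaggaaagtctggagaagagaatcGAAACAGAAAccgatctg
In Stat2 (chr10:128270248-128270330, plus strand) it ran from base -222 to base -213, in the reverse orientation.
Stat2: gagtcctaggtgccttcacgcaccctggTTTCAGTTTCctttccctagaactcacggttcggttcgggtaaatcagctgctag
In Irf1 (chr11:53769879-53769977, plus strand) the gamma-activated site ran from base -90 to base -82, and its letters read the same pattern on both strands.
Irf1: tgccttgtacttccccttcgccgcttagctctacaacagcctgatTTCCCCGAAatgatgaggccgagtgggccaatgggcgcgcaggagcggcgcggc

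Before the comparisons, the arrays and the identity of the cells were examined. Values are log2 signals after RMA, a method that corrects background, makes the arrays alike in distribution and combines probes into probe sets, and a difference of 1 is a doubling. The 3′ control set of Gapdh was above the 5′ set by 3.85 on OXP replicate 1, against -0.117 to 0.284 on the other 11 arrays, a difference that grows when RNA is shortened. OXP replicate 2 lay nearer to the STS+OXP arrays, at a mean root mean square difference of 0.173 over genes, than to the other OXP arrays, at 0.298. OXP replicate 3 was also nearer to the STS+OXP arrays (0.242) than to the other OXP arrays (0.274), and OXP replicate 1 was at 0.344 and 0.321. For OXP replicates 2 and 3, the mean over the other OXP arrays includes replicate 1. Values without OXP replicates 1 and 2, a choice made after the data had been seen for the lists and correlations, are given where they bear on a result. Of 8 mesenchymal markers, 7 were above the controls in every group, with Vim between 12.1 and 12.3, whereas 2 or 3 of 10 epithelial markers were, among them Epcam at 4.66 to 4.87, and Cdh1 was not (2.19 to 2.31). Of 10 macrophage and dendritic cell markers 2 to 4 passed in a group, of 9 lymphocyte markers 2 to 4 and of 6 endothelial markers at most 1. The mean of the macrophage and dendritic cell list lay between 3.59 and 3.67 on STS+OXP arrays, 3.56 and 3.96 on OXP arrays, 3.5 and 3.57 on STS arrays and 3.53 and 3.65 on CTR arrays. Ptprc, the pan-leukocyte marker, stayed at 2.66 to 2.87 in all groups, below the controls. Cd14 had higher means with the drug, at 7.75 in STS+OXP and 8.19 under OXP, beside 7.02 under STS and 7.02 in CTR. Cd68 had means of 3.20 in STS+OXP, 4.41 under OXP, 2.96 under STS and 2.94 in CTR. Of these, only the mean under OXP was above the controls, and the others give no measure of a change. The part of Cd14 and Cd68 in the results was not tested. In bulk RNA, a change in the share of a cell type and a change in RNA per cell cannot be told apart.

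After each treatment 8 of the 9 genes were higher than in CTR, and Irf3 was the gene that passed in no comparison. In STS+OXP-treated cells the 8 genes rose by 1.74-fold to 7.96-fold, in OXP-treated cells by 1.78-fold to 4.22-fold and in STS-treated cells by 1.65-fold to 5.59-fold (limma over all 17097 genes, n = 3 arrays a group, Benjamini-Hochberg adjusted p at most 2.13e-05, 0.000662 and 0.000387). None was lower, also at an unadjusted p under 0.05. Among all genes tested, 16.4% were higher and 14.2% lower in STS+OXP against CTR. In OXP against CTR 17.5% were higher and 13.9% lower, and in STS against CTR 9.75% were higher and 6.74% lower. The median log2 fold change of the 9 genes was 1.52 in STS+OXP, 1.59 in OXP and 1.61 in STS, beside 0.00, -0.01 and -0.03 over all genes. The 3 comparisons share the CTR arrays, so they are not independent of each other. Whether the 3 arrays of a group stand for separate cultures is not stated in the sources used here, so the p-values measure the spread between arrays, which may be technical. Without OXP replicates 1 and 2 together, 8 of the 9 genes were still called in each of these comparisons, with the single OXP array assumed to vary like the other groups. On all 3 arrays of a group, 9 of the 9 genes were above every CTR array in STS+OXP, 8 in OXP and 8 in STS, and 23.3%, 20% and 17.6% of all genes were so in the same order. All 9 treated arrays were above every CTR array for 8 of the 9 genes, beside 9.41% of all genes.

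**Figure D1:**
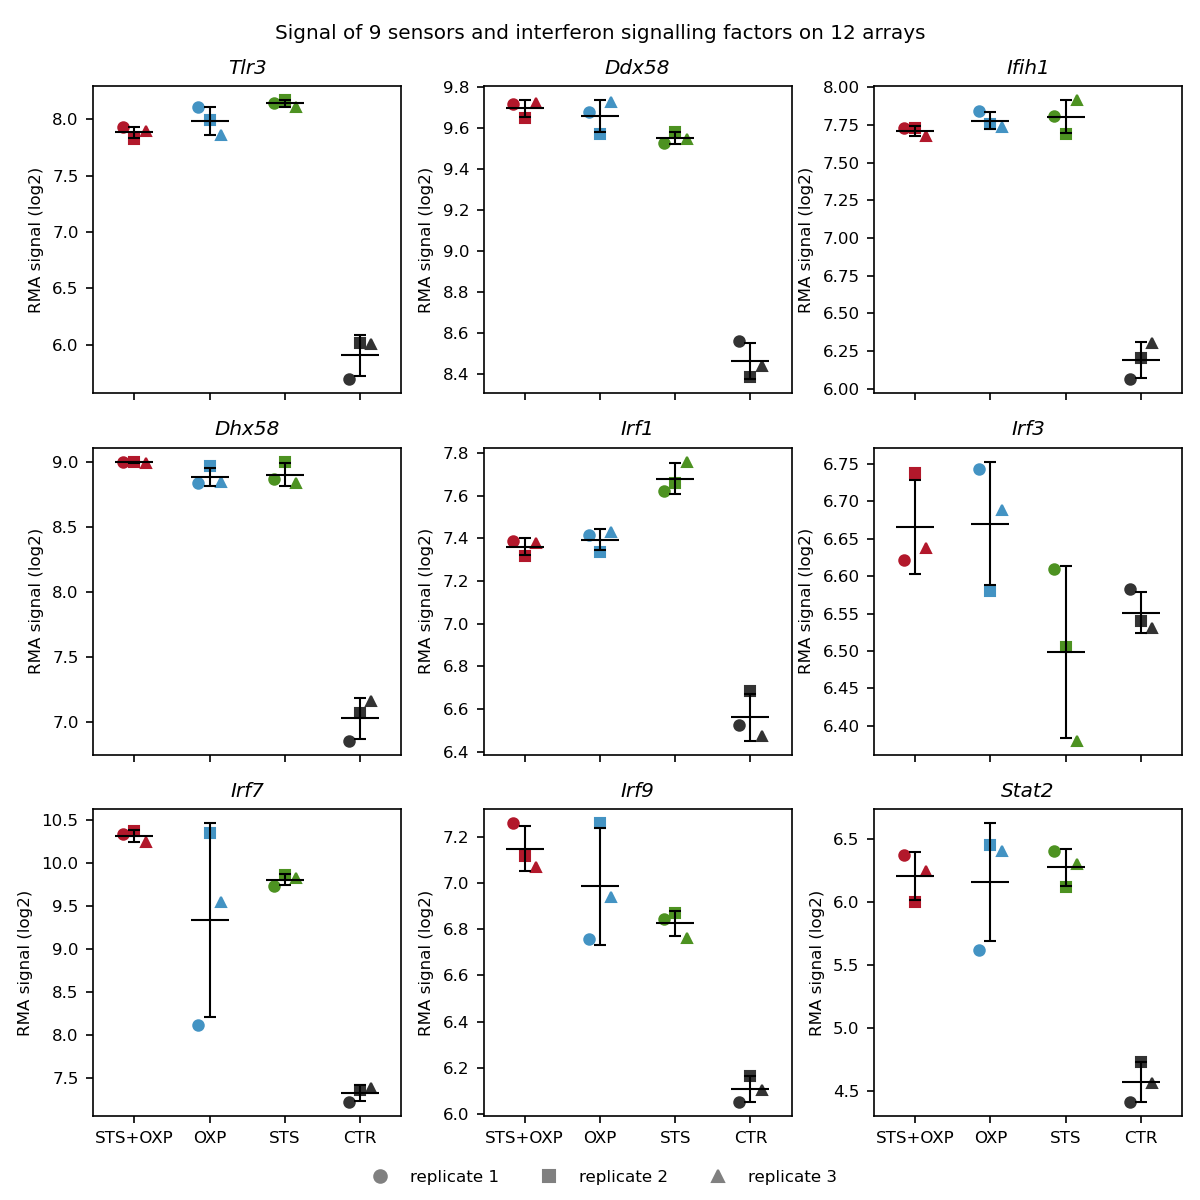
RMA signal on the log2 scale of the 9 genes on each of the 12 arrays (points, shaped by replicate number), with the mean and SD of each group (bars, n = 3). For 8 genes all treated arrays lie above all CTR arrays, as for 9.41% of all genes, whereas the signals of Irf3 stay between 6.38 and 6.74, and Irf7 is spread from 8.12 to 10.3 over the OXP arrays.

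Tlr3, the endosomal receptor for double-stranded RNA (chr8:45395665-45411075), read 7.93, 7.83 and 7.89 on the STS+OXP arrays, 8.11, 7.99 and 7.86 on the OXP arrays, 8.15, 8.17 and 8.11 on the STS arrays, and 5.70, 6.02 and 6.01 on the CTR arrays. All 9 treated arrays were above every CTR array, by more than the whole spread within any group. The log2 fold change was 1.98 in STS+OXP, 2.08 in OXP and 2.23 in STS (SE 0.0926 each, limma adjusted p = 2.60e-09, 1.75e-09 and 6.31e-09). STS had the highest mean, OXP followed and STS+OXP was next, and the OXP arrays overlapped the arrays on either side. A second probe set of Tlr3, dimmer with a mean of 5.63, gave 1.80, 2.08 and 2.22 in the same order of groups, each called.

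The cytosolic sensors moved in a similar way. Ddx58 (chr4:40203777-40239825), which encodes RIG-I, the sensor of RNA with a free triphosphate end, read 9.72, 9.65 and 9.72 in STS+OXP, 9.68, 9.57 and 9.73 in OXP, 9.52, 9.58 and 9.54 in STS, and 8.56, 8.39 and 8.44 in CTR. The treated groups lay close together and all above CTR, at 2.35-fold in STS+OXP (95% interval 2.12 to 2.61), 2.29-fold in OXP (2.06 to 2.54) and 2.13-fold in STS (1.91 to 2.36). Ifih1 (chr2:62595618-62646255), which encodes MDA5, the sensor of long double-stranded RNA, read 7.73, 7.73 and 7.67 in STS+OXP, 7.84, 7.76 and 7.73 in OXP, 7.81, 7.69 and 7.91 in STS, and 6.06, 6.20 and 6.30 in CTR. The arrays of STS overlapped those of the other treated groups, and none of the 9 treated arrays reached the CTR range. Its rise was 2.87-fold in STS+OXP (2.55 to 3.24), 3.00-fold in OXP (2.66 to 3.39) and 3.06-fold in STS (2.72 to 3.45). Dhx58 (chr11:100694884-100704271), which encodes LGP2, a helicase without the signalling domains of the other RIG-I-like sensors, read 9.0, 9.0 and 8.99 in STS+OXP, 8.84, 8.97 and 8.85 in OXP, 8.87, 9.0 and 8.84 in STS, and 6.85, 7.07 and 7.16 in CTR. Every treated array was at least 8.84 and every CTR array at most 7.16. The fold was 3.91 in STS+OXP (3.45 to 4.44), 3.62 in OXP (3.19 to 4.11) and 3.66 in STS (3.23 to 4.16).

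A brighter and a dimmer probe set did not always give the same size. A second probe set of Ddx58 with a mean of 6.04 was also called, at 1.44 in STS+OXP, 1.16 in OXP and 1.63 in STS, where the brightest gave 1.23, 1.20 and 1.09 on the log2 scale. The other probe sets of Ddx58 (mean 3.55) and Dhx58 (means 3.58 and 2.97) had signals near those of the control sets for non-specific sequence. Of these dim sets, that of Ddx58 in STS+OXP (0.40, adjusted p = 0.00568) and the brighter one of Dhx58 in OXP (0.54, adjusted p = 0.0279) were called, and both changes were smaller than on the brightest set. The probe sets tested one by one were a choice made after the data had been seen.

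**Figure D2:**
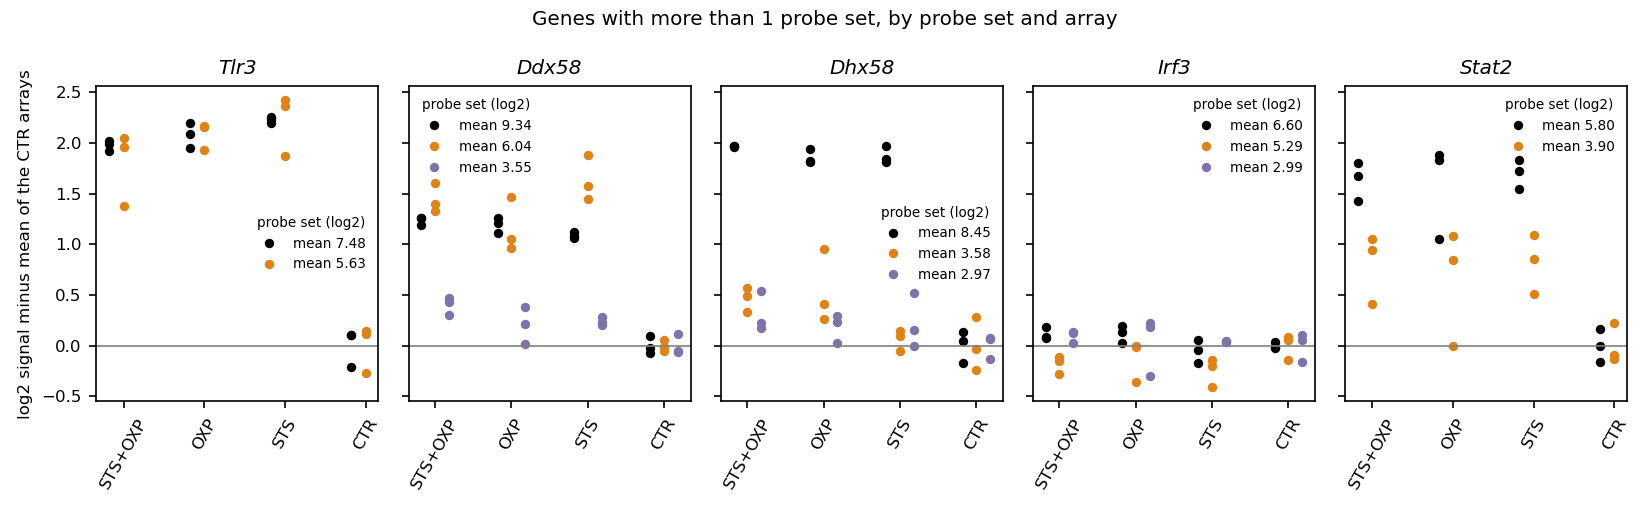
Log2 signal minus the mean of the CTR arrays, for the 5 genes with more than 1 probe set, by array (points) and by probe set (colours, with the mean over the 12 arrays in the key). Both probe sets of Tlr3 and the 2 brighter ones of Ddx58 lie above 0 in all treated groups, and the dimmer sets of Dhx58 and Stat2 show smaller differences than the brightest.

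The interferon regulatory factors fell into genes that rose and 1 that passed no test. Irf1 (chr11:53770014-53778374), a transcriptional activator of interferon and antigen presentation genes, read 7.39, 7.32 and 7.38 in STS+OXP, 7.42, 7.34 and 7.43 in OXP, 7.62, 7.66 and 7.76 in STS, and 6.53, 6.69 and 6.47 in CTR. Its STS arrays were above all arrays with the drug, and those were above all CTR arrays. The log2 fold change against CTR was 0.80 in STS+OXP, 0.83 in OXP and 1.12 in STS (SE 0.0738 each, limma adjusted p = 1.52e-06, 1.02e-06 and 2.55e-07). Irf3 (chr7:44997648-45002848), the factor that responds first in the textbook pathway and is regulated by phosphorylation, read 6.62, 6.74 and 6.64 in STS+OXP, 6.74, 6.58 and 6.69 in OXP, 6.61, 6.51 and 6.38 in STS, and 6.58, 6.54 and 6.53 in CTR. The OXP and STS arrays overlapped the CTR arrays, and the STS+OXP arrays lay just above them. Its log2 fold change was 0.11 in STS+OXP (95% interval -0.05 to 0.28, adjusted p = 0.323), 0.12 in OXP (-0.05 to 0.28, adjusted p = 0.291) and -0.05 in STS (-0.22 to 0.11, adjusted p = 0.721). A change of more than about 1.22-fold upwards lies outside all 3 intervals. The second probe set of Irf3, with a mean of 5.29, gave -0.18, -0.13 and -0.25 in the same order, none called, so the sign of so small a change differed between probe sets.

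Irf7 (chr7:141263183-141266499), the factor that amplifies the interferon response and is itself a target of interferon, had the largest change of the 9 genes in STS+OXP and in STS. It read 10.3, 10.4 and 10.2 in STS+OXP, 8.12, 10.3 and 9.54 in OXP, 9.73, 9.85 and 9.83 in STS, and 7.22, 7.36 and 7.39 in CTR. All treated arrays exceeded the CTR arrays, but the OXP arrays were spread widely, and the one with the large Gapdh difference, replicate 1, was the lowest of the 9 treated arrays. The log2 fold change was 2.99 in STS+OXP, 2.01 in OXP and 2.48 in STS (SE 0.367 each, limma adjusted p = 2.13e-05, 0.000662 and 0.000371). The change in OXP was 2.62 without OXP replicate 1 (adjusted p = 2.15e-08) and 1.51 without OXP replicate 2 (adjusted p = 0.000636). Without both it was 2.22. The part of the RNA quality of OXP replicate 1 in the value of Irf7 was not tested.

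Irf9 and Stat2 encode the partners that carry the type I interferon signal to the response element. Irf9 (chr14:55603985-55610030), the DNA-binding subunit, read 7.26, 7.12 and 7.07 in STS+OXP, 6.76, 7.26 and 6.94 in OXP, 6.84, 6.87 and 6.76 in STS, and 6.05, 6.16 and 6.10 in CTR. Every treated array was above every CTR array, and the OXP arrays spanned the range of both other treated groups. The log2 fold change was 1.04 in STS+OXP, 0.88 in OXP and 0.72 in STS (SE 0.107 each, limma adjusted p = 4.01e-06, 1.94e-05 and 0.000387), the lowest of the 8 rising genes in STS. In OXP it was 0.99 without OXP replicate 1, 0.74 without OXP replicate 2 and 0.83 without both, each called. Stat2 (chr10:128270498-128292853), the subunit that activates transcription, read 6.37, 6.0 and 6.24 in STS+OXP, 5.62, 6.45 and 6.40 in OXP, 6.40, 6.12 and 6.30 in STS, and 4.41, 4.73 and 4.57 in CTR. Treated and CTR arrays did not overlap, and OXP replicate 1 was again the lowest treated array. The measured log2 fold change was 1.63 in STS+OXP, 1.59 in OXP and 1.70 in STS (SE 0.184 each, limma adjusted p = 9.55e-06, 1.25e-05 and 2.72e-05). Without OXP replicate 1 the value in OXP was 1.86, without OXP replicate 2 it was 1.44 and without both 1.83, each called.

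The level of Stat2 in CTR depends on what counts as background. Its CTR mean of 4.57 was below the brightest of 23 control sets for non-specific sequence, which reached 5.81 on the CTR arrays, and above the other 22, which reached at most 3.72. Set against the brightest control, the rise of Stat2 was at least 1.32-fold in STS+OXP, at least 1.27-fold in OXP and at least 1.38-fold in STS. With Stat2 at that bound, the median log2 fold change of the 9 genes was 1.23 in STS+OXP, 1.20 in OXP and 1.12 in STS. A dimmer probe set of Stat2, with a mean of 3.90, gave 0.80 in STS+OXP (adjusted p = 0.0326), 0.64 in OXP (adjusted p = 0.0856) and 0.82 in STS (adjusted p = 0.0514). The group means of the other 8 genes were above all 23 controls in all 4 groups. For Tlr3 in CTR the margin was narrow, with a mean of 5.91 beside 5.81, and CTR replicate 1, at 5.70, was below the brightest control.

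**Figure D3:**
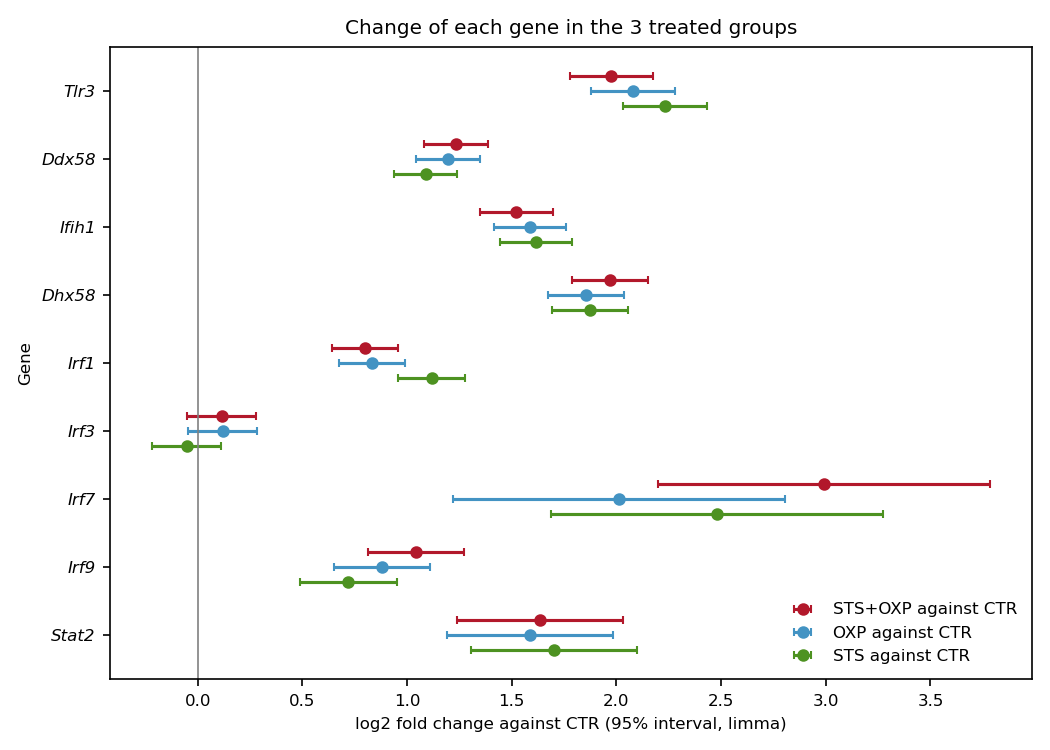
Log2 fold change of each of the 9 genes against CTR in STS+OXP, OXP and STS, with 95% intervals from limma (points and bars, n = 3 arrays a group). The intervals of 8 genes lie above 0 in all 3 comparisons, from 0.72 for Irf9 in STS to 2.99 for Irf7 in STS+OXP, and those of Irf3 include 0.

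Array by array, the 8 rising genes gave a similar picture. Their median change from the CTR mean was 1.67, 1.48 and 1.58 on the STS+OXP arrays, 1.13, 1.72 and 1.68 on the OXP arrays, and 1.73, 1.52 and 1.73 on the STS arrays. The value of OXP replicate 1 was the lowest of the 9. On that array Tlr3 was as high as elsewhere, with a change of 2.20, whereas Irf7 was at 0.80. Over the 12 arrays, which share their treatment groups, the 28 pairs among the 8 genes correlated with Pearson's r between 0.787 and 0.994 (median 0.933). The 8 pairs that hold Irf3 lay between 0.0162 and 0.347 (median 0.210). Without OXP replicates 1 and 2 they ran from 0.824 to 0.993 for the 28 pairs and from -0.0424 to 0.403 for the 8 pairs. These correlations describe arrays in 4 groups, of which 1 is far from the others. With deviations from the group means on the 12 arrays, the 28 pairs lay between -0.58 for Ddx58 with Dhx58 and 0.87 for Irf7 with Irf9. The SD of Irf7 was 1.13 in OXP and at most 0.0922 in the other groups, so the value of 0.87 rests mainly on the OXP arrays. Correlations of deviations were not computed without OXP replicates 1 and 2.

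Outside the list, the genes whose signals ran most like the mean profile of the 9 over the 12 arrays were Tor1aip1, which encodes a protein of the inner nuclear membrane (r = 0.995), and Parp14, an ADP-ribosyltransferase (0.994). Oas1g, a member of the oligoadenylate synthetase family (0.994), Nfkbia, an inhibitor of NF-kB (0.993), Shisa5 (0.993), Igtp, an interferon-inducible GTPase (0.992), Col6a1, a collagen chain (0.992), and Phf11a (0.992) followed. Nfkbia, for example, had means of 7.22 in STS+OXP, 7.09 under OXP, 7.08 under STS and 5.82 in CTR. These genes were picked for their likeness to the mean profile, so treated means that lie close together follow from the choice.

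The design also asks what the drug added to starvation and what starvation added to the drug. Between STS+OXP and STS, 2 of the 9 genes differed, Irf9 higher and Irf1 lower, beside 10.8% higher and 11.2% lower among all genes. Irf1 had a log2 fold change of -0.32 (95% interval -0.48 to -0.16, limma adjusted p = 0.00619). Irf9 had a log2 fold change of 0.32 (0.09 to 0.55, adjusted p = 0.0449). The arrays of STS+OXP and STS did not overlap for 6 of the 9 genes, among them the uncalled Ddx58 and Irf3. The share of all genes without overlap was not counted for this comparison, so the lack of overlap is a description. The call of Irf9 was lost without any 1 of the CTR, STS and STS+OXP arrays or OXP replicate 3, with adjusted p between 0.0508 and 0.157, and also with median centring of the arrays (adjusted p = 0.126) or cyclic loess (0.0654), under which Tlr3 was called instead (0.0401 and 0.0438). Tlr3, at -0.26 (adjusted p = 0.0675), and Irf7, at 0.51 (adjusted p = 0.399), did not pass. Without OXP replicate 1, which adds to the shared estimate of spread, both passed, with adjusted p of 0.0433 for Tlr3 and 0.0178 for Irf7. Tlr3 also passed without CTR replicate 1 (adjusted p = 0.0251). The intervals of Ifih1 (-0.27 to 0.08), Dhx58 (-0.09 to 0.28), Ddx58 (-0.01 to 0.30) and Stat2 (-0.47 to 0.33) bound what the drug could have added to starvation at this precision.

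Between STS+OXP and OXP, 0 of the 9 genes passed in limma, and 1, Irf7, had an unadjusted p under 0.05. The methods' t-test with the same adjustment called 0 of all 17097 genes, so its result says nothing about the 9. In limma 0.00585% of all genes were higher and 0.00585% lower, which is 1 gene each. That count of 2 rests on single arrays, since it was 1166 without OXP replicate 2, 688 without OXP replicates 1 and 2 together, 3 without OXP replicate 1 and 0 without OXP replicate 3. The log2 fold changes of the other 8 genes lay between -0.10 for Tlr3 and 0.16 for Irf9. Irf7 was higher by 0.98 (95% interval 0.19 to 1.77, adjusted p = 0.304), and OXP replicate 2, at 10.3, lay within the STS+OXP arrays while the other OXP arrays lay below them. Without OXP replicate 2 the difference was 1.48 (adjusted p = 0.00533), without OXP replicate 1 it was 0.37 (adjusted p = 0.534), and without both it was 0.77 (adjusted p = 0.000665). For the sensors the intervals were narrow, from -0.30 to 0.10 for Tlr3, -0.11 to 0.19 for Ddx58, -0.24 to 0.11 for Ifih1 and -0.07 to 0.29 for Dhx58.

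For most of the 9 genes the combined treatment gave less than the sum of the single treatments on the log2 scale. This was measured as the interaction, the change of STS+OXP against CTR minus the sum of the changes of OXP and of STS against CTR. It was below 0 and called for 7 of the 9 genes, and above 0 for none, beside 5.76% lower and 2.53% higher among all genes. The median interaction was -1.50 over the 9 genes and 0.03 over all genes. Tlr3 had a combined change of 1.98, against a sum of 4.31, which left an interaction of -2.33 (95% interval -2.62 to -2.05, limma adjusted p = 3.26e-07). For Dhx58 the combined change was 1.97 and the sum 3.73 (interaction -1.76, -2.02 to -1.50). Ifih1 gave -1.68 (-1.92 to -1.43), Irf1 -1.15 (-1.38 to -0.92) and Ddx58 -1.05 (-1.27 to -0.84). For Dhx58 the single changes were 1.86 in OXP and 1.87 in STS, close to the combined one.

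The interaction was less settled for the other genes. Stat2 gave -1.66 (-2.22 to -1.09, adjusted p = 0.00132), and -0.42 if its CTR level is set at the brightest control. It was called at -1.92 without OXP replicate 1, -1.51 without OXP replicate 2 and -1.90 without both. Irf9 gave -0.56 (-0.88 to -0.23, adjusted p = 0.0383), a call that was lost without any 1 of CTR replicates 1 and 3, the STS arrays and STS+OXP replicates 2 and 3 (adjusted p between 0.0644 and 0.101), and with median centring (0.0585) or cyclic loess (0.0850). Irf7 gave -1.50 (-2.62 to -0.38) and did not pass (adjusted p = 0.104), but it was called at -2.11 without OXP replicate 1 (adjusted p = 3.17e-05) and at -1.71 without OXP replicates 1 and 2 (adjusted p = 2.14e-06). It was not called at -0.997 without OXP replicate 2 (adjusted p = 0.114) or at -1.40 without OXP replicate 3 (adjusted p = 0.159). Irf3 gave 0.05 (-0.18 to 0.28, adjusted p = 0.848).

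**Figure D4:**
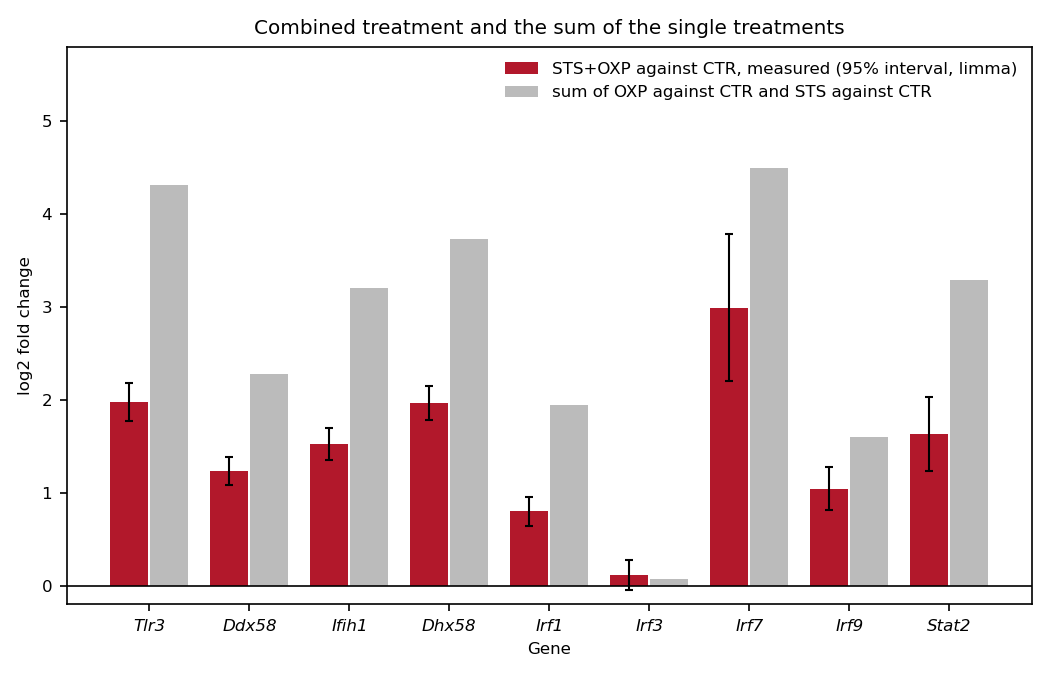
Measured log2 fold change of STS+OXP against CTR (red bars, with 95% intervals from limma) beside the sum of the log2 fold changes of OXP and of STS against CTR (grey bars), for the 9 genes. The measured change is below the sum for 8 genes, for example 1.98 beside 4.31 for Tlr3, and 0.11 beside 0.07 for Irf3.

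Other genes of the pathway were taken from 6 lists ordered by role. Among all genes, 16.4% rose and 14.2% fell in STS+OXP, 17.5% and 13.9% in OXP, and 9.75% and 6.74% in STS. The counts of each list stand beside these shares, and some, such as 1 of 11 kinases and scaffolds that rose in STS, lie near them. Of other sensors and adaptors, 23 of 24 listed genes were measured, and 11 rose and 4 fell in STS+OXP, 13 rose and 4 fell in OXP, and 7 rose and 1 fell in STS. Their median log2 fold changes were 0.43, 0.50 and 0.21. Zbp1, a sensor of Z-form nucleic acid, rose 6.28-fold in OXP and 6.44-fold in STS, and Ddx60, an interferon-inducible helicase, rose 3.84-fold and 3.39-fold. Ifi204, a DNA sensor of the PYHIN family, rose 2.67-fold in OXP and 3.07-fold in STS. The cGAS and STING branch, named here after its values were seen, was split. Cgas, the DNA sensor, had means of 5.38 in STS+OXP, 5.50 under OXP, 6.89 under STS and 6.48 in CTR and fell to 0.468 of its CTR level in STS+OXP and to 0.509 in OXP (adjusted p = 8.91e-05 and 0.000243), while its adaptor Sting1 rose 1.69-fold and 1.80-fold (adjusted p = 0.000232 and 8.37e-05). In STS neither passed, with log2 fold changes of 0.41 for Cgas (adjusted p = 0.101) and 0.11 for Sting1 (adjusted p = 0.631). Mavs, the adaptor of RIG-I and MDA5, rose by 0.35 on the log2 scale in OXP, with 0.23 in STS+OXP (adjusted p = 0.0545) and -0.04 in STS (adjusted p = 0.822).

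Of the kinases and scaffolds between sensors and factors, 11 of 15 were measured. In STS+OXP 4 rose and 1 fell, in OXP 6 rose and 1 fell, and in STS 1 rose and 1 fell. Their median log2 fold changes were 0.27, 0.36 and 0.04, well under those of the 9 genes. Tbk1 and Ikbke, the kinases that phosphorylate IRF3 and IRF7, rose 1.55-fold and 1.5-fold in OXP, and Ikbkg, a scaffold of the IKK complex, rose 1.51-fold. In STS, Azi2, an adaptor of TBK1, rose 1.37-fold and Fadd was at 0.81 of its CTR level (adjusted p = 0.0365).

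Of 13 interferons, receptors and Janus kinases, 12 were measured, and 5 rose in STS+OXP, 4 in OXP and 2 in STS, with none lower. The 3 interferon genes measured, named after their values were seen, were at background in all 4 groups. Il28b, also on the list, was not measured, and interferon genes outside the list were not examined. Ifnb1 had means of 3.29 in STS+OXP, 3.32 under OXP, 3.43 under STS and 3.41 in CTR, Ifna4 3.18, 3.23, 3.31 and 3.28 in the same order, and Ifng 2.69, 2.73, 2.73 and 2.71. At that level the arrays give no measure of a change. Il10rb, a receptor chain of the lambda interferons, rose 2.33-fold in OXP. The Janus kinases Tyk2 and Jak2 rose 1.5-fold and 1.36-fold in OXP and 1.28-fold and 1.46-fold in STS.

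Of other IRF and STAT factors, 13 of 15 were measured, and 6 rose in STS+OXP, 5 in OXP and 2 in STS. Irf4, Irf5, Irf8 and Stat4, factors best known from immune cells, were at background in all groups. Irf5 passed the test in OXP, with means of 3.18 in OXP and 3.5 in CTR, but signals at that level give no measure of a change, and it was named after its values were seen. Nlrc5, a transactivator of MHC class I genes, rose 6.01-fold in OXP and 4.28-fold in STS. Stat3 rose 2.23-fold and 2.03-fold, and Irf2, an antagonist of IRF1, rose 2.47-fold in OXP. Of 24 inhibitors of sensing and interferon signalling, 23 were measured, and 11 rose and 2 fell in STS+OXP, 10 rose and 4 fell in OXP, and 9 rose and 1 fell in STS. Usp18, which restrains signalling at the interferon receptor, rose 3.95-fold in OXP and 2.84-fold in STS. Ube2l6, an enzyme that conjugates a ubiquitin-like protein, rose 3.79-fold and 3.82-fold. Trim21 rose 3.80-fold in OXP and Trex1, a nuclease that removes cytosolic DNA, 2.73-fold in STS.

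The interferon-stimulated effectors had the medians nearest to those of the 9 genes. Of 30 listed genes, 26 were measured, and 24 rose and 1 fell in STS+OXP, 25 rose and 1 fell in OXP, and 25 rose and none fell in STS. Their median log2 fold changes were 1.74, 1.62 and 1.62. Gbp2, a guanylate-binding protein of cell-autonomous defence, rose 8.34-fold in OXP and 5.76-fold in STS. Ifit3 and Gbp3 rose 6.02-fold and 5.05-fold in OXP, and Mx1, an antiviral GTPase, and Trim30a rose 5.53-fold and 5.47-fold in STS. The exception, named after its values were seen, was the chemokine gene Cxcl10, which had means of 6.33 in STS+OXP, 7.12 under OXP, 8.59 under STS and 8.08 in CTR. It was the gene that fell, to 0.298 of its CTR level in STS+OXP and to 0.515 in OXP (adjusted p = 6.13e-07 and 0.000156). The interaction was below 0 and called for 25 of these 26 genes, beside 5.76% of all genes. It was so for 6 of 23 other sensors and adaptors and 7 of 23 inhibitors. The counts were 1 of 11 kinases and scaffolds, 1 of 12 interferons and receptors and 2 of 13 other factors. Without OXP replicates 1 and 2 together, the median log2 fold change in OXP was 0.61 for sensors and adaptors and 0.31 for kinases and scaffolds. It was 0.09 for interferons and receptors, 0.20 for other factors, 0.31 for inhibitors and 1.58 for effectors. The median interactions were then -0.28, -0.20, -0.06, -0.11, -0.18 and -1.56 in the same order of lists.

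**Figure D5:**
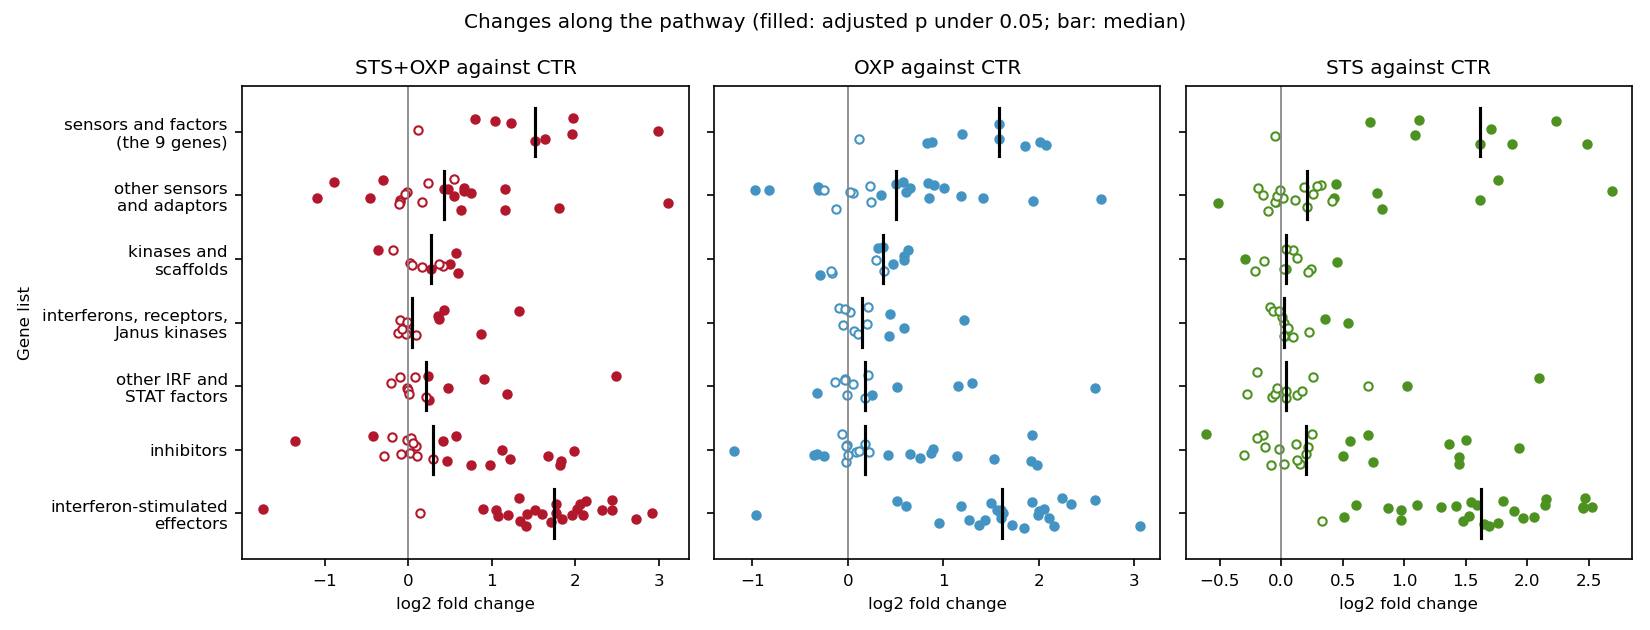
Log2 fold changes against CTR of the 9 genes and of the measured genes of 6 pathway lists (points, filled where the limma adjusted p was under 0.05, with a bar at the list median), for STS+OXP, OXP and STS. The 9 genes and the interferon-stimulated effectors have medians between 1.52 and 1.74, and those of the other lists lie between 0.02 and 0.50.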

How the data were processed

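The deposited values were log2 signals that the authors made with RMA in R 3.02, per the submitters' notes, for 45141 probe sets on 12 arrays. No single-probe signals were used, and no further normalization or filter was applied. Of the probe sets, 28898 carried 1 symbol in the annotation, 551 carried several, 15588 carried none and 104 were controls. Groups came from the sample labels.

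limma 3.58.1 in R 4.3.3 fitted 4 group means to all 12 arrays (8 residual and 5.05 prior degrees of freedom). Tests were two-sided, with p adjusted by Benjamini-Hochberg over 17097 genes and calls made below 0.05. The fit was tested on simulated data. The number of arrays limits the precision.

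All 9 genes are named, and of each list up to 3 genes with the largest change among those called in OXP and in STS against CTR. The members and lists were chosen with earlier results of these data known. Background in a group was the highest of 23 control sets, or of 22 without the brightest, which was used for the lists and markers. Alternatives were median centring, cyclic loess, other choices of probe sets, a filter on dim genes, array quality weights, eBayes with trend and robust, fewer arrays in the fit, a replicate block, the methods' t-test (Welch), a fold of at least 2 as well, and leaving out arrays. Gene positions and promoters are those of RefSeq, GRCm38.p6.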

Additional observations from a re-analysis of the deposited data

Results flagged for a closer look

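For 7 genes the effect of starvation differed between the media with and without oxaliplatin, by a test of the difference itself (the interaction in limma, Benjamini-Hochberg adjusted over all 17097 genes). Among all genes, 5.76% were called with a difference below 0 and 2.53% with one above 0. The difference between the effects, on the log2 scale, was -2.33 for Tlr3, -1.76 for Dhx58, -1.68 for Ifih1, -1.66 for Stat2, -1.15 for Irf1, -1.05 for Ddx58 and -0.56 for Irf9. In each case the gene was higher in STS than in CTR, while the difference between STS+OXP and OXP did not pass. Only 2 of all 17097 genes passed between STS+OXP and OXP, so not passing there is no trait of these 7 genes. The interaction of Stat2 was -0.42 with its CTR level set at the brightest control set, and the call of Irf9 was lost without several single arrays.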

How the results depend on the processing

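Against CTR, the count of called genes stayed at 8 of 9 in all 3 comparisons under most alternatives. With a fold of at least 2 as well it was 7 in STS+OXP (Irf1 lost), 6 in OXP (Irf1 and Irf9 lost) and 7 in STS (Irf9 lost). With specific probe sets only, 5 of 5 measured genes were called in each. Irf1, Irf3, Irf7 and Irf9 had no such probe set, so that setting does not bear on them. With the methods' t-test the count was 5 in OXP, where Irf7, Irf9 and Stat2 lost their calls (adjusted p = 0.279, 0.128 and 0.118). That test called 1034 of all 17097 genes in OXP, and limma called 5377. Leaving out 1 array in turn gave 8 in each. For STS+OXP against STS the count of 2 became 0 with specific probe sets only or a fold of at least 2 as well. It was 4 in a fit of just the compared groups' arrays, 1 with each probe set tested by itself, and 1 to 4 when each array was left out. Of all 17097 genes, 3764 were called in the main fit, 5170 in the fit of just those arrays and 588 with the fold as well. The count of the 9 genes thus moved along with that of all genes. With median centring or cyclic loess it stayed at 2, but Irf9 lost its call and Tlr3 gained one. It was 3, with Tlr3, for genes above the median signal, with array quality weights and with the methods' t-test, where Irf7 was also called and Irf9 was not. For STS+OXP against OXP the count of 0 became 1 without OXP replicates 1 and 2 together, and 0 to 1 when each array was left out. The interaction count of 7 became 6 to 8 when each array was left out. It was 6 with median centring, cyclic loess, a fold of at least 2 as well or each probe set tested by itself (Irf9 lost in each). With specific probe sets only it was 5 of 5 measured genes, and with array quality weights it was 8, with Irf7. Of all genes the interaction was called for 1417 in the main fit, 362 with the fold as well and 1728 with array quality weights. Whether the replicate numbers pair the arrays is not stated in the sources used here. The deviations of same-numbered arrays correlated between -0.199 and 0.102, which cannot settle it with 3 arrays a group. With the replicate block the counts were 8 in STS+OXP, 8 in OXP and 8 in STS against CTR, 2 against STS, 0 against OXP and 7 for the interaction.

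Some uncalled values changed sign. In STS+OXP against OXP these were Irf1 (0.0107) and Irf3 (0.0293) with cyclic loess, Stat2 (-0.0332) with array quality weights, and Tlr3 (0.0227), Ddx58 (-0.0305) and Stat2 (-0.19) without OXP replicates 1 and 2 together. When each array was left out, the ranges in that comparison were -0.0496 to 0.0319 for Irf3, -0.22 to 0.19 for Stat2 and -0.00593 to 0.0708 for Ddx58. The ranges were also -0.108 to 0.00632 for Irf3 in STS against CTR, -0.152 to 0.0350 for Stat2 in STS+OXP against STS and -0.0108 to 0.104 for Irf3 in the interaction. The cause was not tested. Of the values of single genes under alternatives, 1240 kept their direction and side of the threshold, 34 lost a call, 18 gained one and 16 changed sign. Signals near the control sets, as for Stat2 in CTR and, beside the brightest control, Tlr3 in CTR, limit the size of a fold.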
